A study of Homo sapiens with 4 samples.

Results

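The chaperones of the cytosol and mitochondria were followed in ribosome footprints of HCT-8, a human colorectal adenocarcinoma cell line, in a derivative resistant to 5-fluorouracil. Members were taken by gene symbol: the Hsp70 and Hsp110 families (HSPA, HSPH), cytosolic Hsp90 (HSP90A), the J proteins (DNAJA, DNAJB, DNAJC), the mitochondrial chaperonin (HSPD, HSPE), the cytosolic chaperonin TRiC (TCP1, CCT), prefoldin (PFDN) and symbols starting with HSPB. HSPA5, HSPA13, DNAJB9, DNAJB11, DNAJC3 and DNAJC10, which work inside the endoplasmic reticulum (ER), were left out. This gave 82 genes of 20323, from 83 rows, as DNAJC14 had 2 rows and the larger was used. They comprised 15 Hsp70, Hsp110 and Hsp90 genes, 40 J proteins, 15 TRiC and prefoldin genes, 2 genes of the mitochondrial chaperonin and 10 HSPB symbols. The letters of a symbol do not fix a location or a function: DNAJB12, DNAJB14 and DNAJC1 are anchored in the ER membrane, HSPB11 is a protein of intraflagellar transport, HSPBP1 a nucleotide exchange factor of Hsp70, and HSPBAP1 a protein named for binding HSPB1.

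The cells had been transfected with a METTL14 overexpression plasmid (OE, 2 libraries) or with a negative control plasmid (NC, 2 libraries), both in the 5-fluorouracil-resistant line and both treated with 100 ug/mL cycloheximide, which stalls ribosomes on messages. METTL14 is the RNA-binding partner in the enzyme that places N6-methyladenosine on messages. The submitters describe 2 independent experiments. A footprint count depends on how much of a message is present and on how densely ribosomes occupy it. These cannot be told apart here, since no library of total RNA was analysed.

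Chaperones bind unfolded protein chains and let them go in cycles of ATP hydrolysis. J proteins bring clients to Hsp70 and trigger its ATPase, Hsp110 proteins exchange its nucleotide, and Hsp90 receives kinases and hormone receptors from Hsp70. Prefoldin hands actin and tubulin to the ring of TRiC, and the chaperonin formed by HSPD1 and HSPE1 folds proteins imported into mitochondria. Many of these genes are switched on by heat shock factor 1 (HSF1), which binds inverted repeats of GAA (heat shock elements) in their promoters.

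The promoters of members that carry the results below are shown because they differ in these elements. RefSeq promoters (GRCh38.p14, 250 bases before to 50 bases after a start site) were found for 72 of the 82 members. A core element, GAANNTTC or TTCNNGAA, each of which reads the same on both strands, was found for 27 of these 72 genes (37.5%), against 16.2% of all 27305 genes with a promoter. The 3-unit form, in which a core of each kind overlaps the other so that they share their middle unit, stood in promoters of 7 of the 72 (9.72%), against 0.608% of all genes. These 7 were HSP90AA1, HSP90AB1, HSPA8, HSPA6, DNAJA1, DNAJB6 and HSPD1. By class, the core was found for 9 of 13 Hsp70, Hsp110 and Hsp90 genes, 8 of 36 J proteins and 5 of 13 TRiC and prefoldin genes. A match of letters is a description and does not show binding. The stretches of 80 bases below were placed by gene so as to hold core elements, so their distances from the start site differ. They begin 100 bases before it for HSP90AA1, 175 for HSP90AB1, 90 for HSPA8 and DNAJB1, 140 for HSPA1B and 250 for HSPD1. The stretches follow, 5′ to 3′ on the strand of the gene, with core elements in capitals:
HSP90AA1 (chr14:102087065-102087144, minus strand): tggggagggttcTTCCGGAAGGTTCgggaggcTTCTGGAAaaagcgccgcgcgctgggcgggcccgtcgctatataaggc
HSP90AB1 (chr6:44247768-44247847, plus strand): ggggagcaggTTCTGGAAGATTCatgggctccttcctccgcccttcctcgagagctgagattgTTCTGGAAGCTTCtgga
HSPA8 (chr11:123062147-123062226, minus strand): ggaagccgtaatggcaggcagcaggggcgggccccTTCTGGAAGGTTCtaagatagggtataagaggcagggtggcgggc
HSPA1B (chr6:31827598-31827677, plus strand): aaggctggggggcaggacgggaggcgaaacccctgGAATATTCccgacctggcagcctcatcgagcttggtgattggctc
DNAJB1 (chr19:14518408-14518487, minus strand): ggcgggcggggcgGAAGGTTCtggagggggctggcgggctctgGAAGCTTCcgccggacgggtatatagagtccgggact
HSPD1 (chr2:197500011-197500090, minus strand): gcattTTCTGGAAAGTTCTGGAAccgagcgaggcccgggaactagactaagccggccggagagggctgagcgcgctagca

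The stretches of HSP90AB1 and HSPD1 each hold 2 matches to the 3-unit form, which overlap in HSPD1, and those of HSP90AA1 and HSPA8 hold 1 each. HSPA8 has a second, 230 bases before its start site. HSPA1B and DNAJB1 hold only cores here. The core of HSPA1A, the near-identical neighbour of HSPA1B, lies 106 bases before its start site, and the same bases, read from the other strand, lie 161 bases before that of HSPA1L.

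Estimated counts summed to 7742274 and 24392875 in OE and to 21846389 and 18707758 in NC. The members held 1.55% and 2.53% of the counts in OE and 2.20% and 2.41% in NC. OE replicate 1 stood apart from the other libraries: over 12560 genes, log2 differences between replicates had a standard deviation of 1.30 in OE and 0.46 in NC. Its difference from the NC mean went with expression level, with a median of -1.08 on the log2 scale in the tenth of genes with the highest NC level and 1.16 in the tenth with the lowest. In OE replicate 2 the same medians were -0.08 and -0.09. The tenth with the highest level held 23 of the 69 tested members. METTL14 had 448 and 91.2 CPM (counts per 1000000 of the scaled library total) in OE, against 44.55 and 47.6 CPM in NC. Its log2 fold change of 2.55 did not pass the test (edgeR's quasi-likelihood fit, adjusted p = 0.734 after Benjamini-Hochberg). Of 10 colorectal epithelial markers, EPCAM, CDH1, KRT8, KRT18 and KRT19 each had 467 CPM or more in all 4 libraries, whereas CEACAM5 was at 0 in OE and KRT20 at no more than 1.45 CPM. The 10 summed to 6161 and 24522 CPM in OE, against 21683 and 21074 CPM in NC, low in OE replicate 1, and their part in the results below was not tested. The 6 fibroblast markers summed to 6.68 and 2.99 CPM in OE, against 9.84 and 10.3 CPM in NC, and the 5 leukocyte markers to 3.33 and 4.70 CPM in OE, against 13.3 and 12.1 CPM in NC, with CD3E at 0 in all 4. The 4 endothelial markers summed to under 1 CPM in each library, with CDH5 and KDR at 0. In such bulk libraries, fewer cells of a type and less RNA per cell cannot be told apart.

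Of the 82 members, 69 passed the filter on low counts. The 13 others had at most 32.4 counts over all libraries together and 5 had none, among them HSPB2 and DNAJB8. HSPA6, a strictly heat-induced Hsp70, was one of the 13, with 0 and 1.06 CPM in OE and 0.464 and 0 CPM in NC. No member passed a Benjamini-Hochberg adjusted p of 0.05 in edgeR's quasi-likelihood fit (0 of 69, beside 0% of all genes tested), and the smallest adjusted p among them was 0.734. At an unadjusted p below 0.05 there were 3 members, beside 5.5% of all genes tested: DNAJB1, DNAJB2 and DNAJC17. DESeq2's Wald test called 0 members, beside 0.199% of all genes tested, and the fit with the replicate block 0, beside 0.191%. Without OE replicate 1 the fit called 26 members, beside 33.5% of all genes tested, and without OE replicate 2 it called 43, beside 61.2%. It then took its spread from the NC libraries alone. Without NC replicate 1 or NC replicate 2 it called 0 members, beside 0.0717% and 0.0239% of all genes tested. The values below are therefore levels in 4 libraries, with no difference that passed the adjusted threshold in the fit over all 4. A gene is called higher or lower in both OE libraries where its 2 OE values lie above or below both NC values. That was so for 14 members (higher) and 20 members (lower) of the 69, beside 19.9% and 20.4% of all genes tested. Among genes with a mean of at least 100 CPM, 3.77% were higher and 37.5% were lower in both OE libraries, and of the 28 members at that level 4 were higher and 8 lower. The 4 were HSPA8, HSPA1B, DNAJB1 and HSPB11. Taken alone, OE replicate 1 had 22 members above and 47 below both NC libraries, beside 46.7% and 45.5% of all genes tested, and OE replicate 2 had 37 above and 26 below, beside 42.8% and 42.5%. When only library totals were used for scaling, 17 members lay higher and 10 lower in both OE libraries, beside 30.2% and 11.7% of all genes tested, and after cyclic loess 14 and 14, beside 19.2% and 20.4%.

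**Figure D1:**
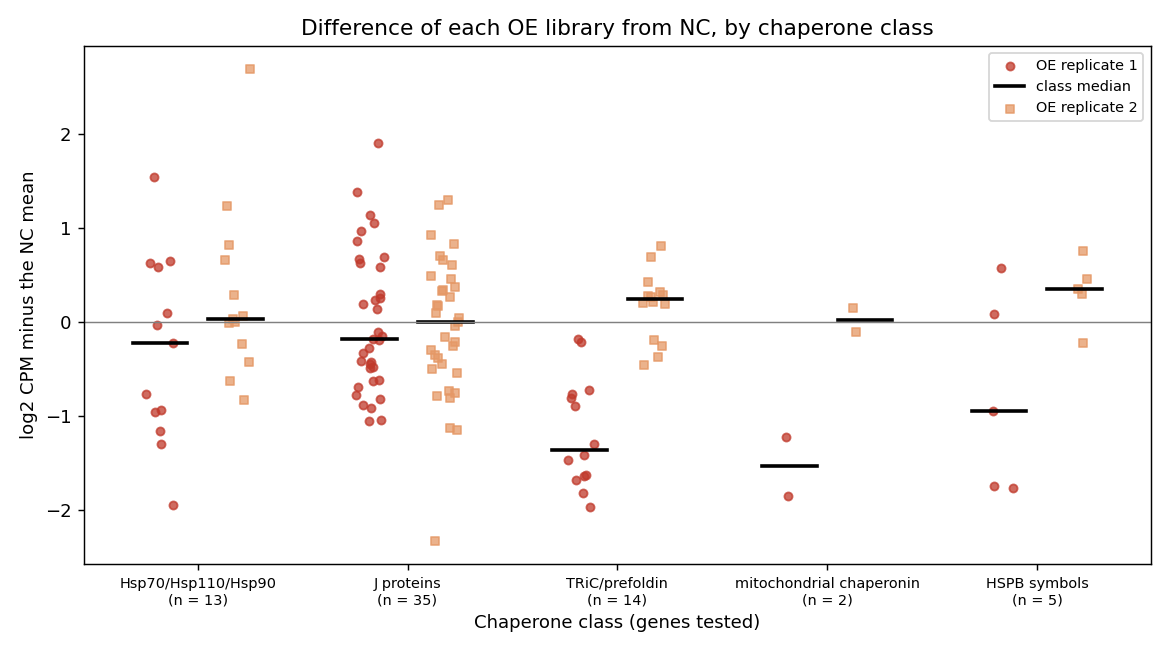
Log2 CPM minus the NC mean (vertical axis) for each tested member in OE replicate 1 (circles) and OE replicate 2 (squares), by chaperone class (horizontal axis), with black bars at class medians. In the TRiC and prefoldin class all 14 circles lie below 0 and 10 of the 14 squares lie above it, while Hsp70, Hsp110 and Hsp90 genes and J proteins lie on both sides of 0 in both libraries.

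Hsp70, Hsp110 and Hsp90 genes had median differences from the NC mean, on the log2 scale, of -0.22 (OE replicate 1) and 0.03 (OE replicate 2), with members from -1.95 to 1.54 and from -0.84 to 2.68. J proteins had medians of -0.18 and -0.01, with members from -1.05 to 1.90 and from -2.33 to 1.30. TRiC and prefoldin genes had medians of -1.36 and 0.24, and their members spanned only -1.97 to -0.19 and -0.46 to 0.80. The medians over all genes tested were 0.02 and 0.00. After subtraction, for each member, of the median of the tenth of genes it belongs to, the class medians in OE replicates 1 and 2 were -0.47 and 0.30 for TRiC and prefoldin, -0.08 and 0.06 for Hsp70, Hsp110 and Hsp90 genes, and 0.00 and -0.05 for J proteins. The plot by class shows these values before that step. Below, genes at the same level are the genes of the same group in that step. The group with the highest NC level was wide, from 7.38 to 13.9 log2 CPM. A trend with level inside a group was not removed.

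Both cytosolic Hsp90 genes lay lower in both OE libraries. HSP90AA1 (ENSG00000080824), the stress-inducible form, had 2643 and 3324 CPM in OE, against 5460 and 6441 CPM in NC. HSP90AB1 (ENSG00000096384), the constitutive form, had 1325 and 3311 CPM in OE, against 4865 and 5358 CPM in NC. Neither gene overlapped between the groups, and for both the lower value was that of OE replicate 1. Their log2 fold changes were -0.996 (SE 0.71) and -1.14 (SE 0.79), with adjusted p of 0.738 and 0.734 in edgeR's quasi-likelihood fit. The difference of HSP90AA1 in OE replicate 1, -1.17, was near the median of -1.08 of genes at its level, and after cyclic loess, which removes such a trend, HSP90AA1 overlapped between the groups (log2 fold change -0.12). HSP90AB1 still lay lower in both OE libraries after cyclic loess, with a log2 fold change of -0.44, and had -0.63 without OE replicate 1 and -1.95 without OE replicate 2. In OE replicate 2, where genes of the highest level had a median of -0.08, HSP90AA1 lay 0.84 and HSP90AB1 0.62 below the NC mean on the log2 scale. The balance of the pair differed between libraries. HSP90AA1 held 66.6% of their joint counts in OE replicate 1 (95% Wilson interval 66.2% to 67.1%) and 50.1% in OE replicate 2 (49.8% to 50.4%), against 52.9% (52.7% to 53.1%) and 54.6% (54.4% to 54.8%) in NC. Such intervals cover counting error only, and the NC values lay between the OE values.

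The constitutive Hsp70 of the cytosol, HSPA8 (ENSG00000109971), which serves new chains at the ribosome and uncoats clathrin, had the highest fold change of the members. Its level was 970 and 5844 CPM in OE, against 913 and 909 CPM in NC. The NC values differed by less than 1%, OE replicate 1 lay just above them, and OE replicate 2 stood far above the other 3 libraries. The log2 fold change was 1.90 (SE 1.00, adjusted p = 0.734 in edgeR's quasi-likelihood fit) and rested on OE replicate 2: without that library it was 0.09, and without OE replicate 1 it was 2.68. HSPA8 held 42.9% of all Hsp70 and Hsp110 counts in OE replicate 1 (42.3% to 43.5%) and 73.5% in OE replicate 2 (73.3% to 73.7%), against 30.4% (30.1% to 30.8%) and 28.7% (28.3% to 29.0%) in NC. This share, which no scaling of libraries touches, was thus higher in both OE libraries. In OE replicate 1 HSPA8 lay 1.17 above the median of genes at its level on the log2 scale. Set against HSP90AA1, HSPA8 had a count ratio of 0.367 and 1.76 in OE and of 0.167 and 0.141 in NC. HSPA8 has several processed pseudogenes, and how reads shared with them were counted is not given in the sources used here.

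HSPA1A and HSPA1B encode the heat-inducible Hsp70 and are nearly identical, so reads can be split between them and each alone is uncertain. HSPA1B (ENSG00000204388) had 306 and 480 CPM in OE, against 217 and 192 CPM in NC. HSPA1A (ENSG00000204389) had 95.7 and 33.6 CPM in OE, against 39.2 and 27.7 CPM in NC, and overlapped between the groups. The sum of both was 402 and 514 CPM in OE, against 256 and 219 CPM in NC, with no overlap. Its log2 fold change was 0.95 (SE 0.43, adjusted p = 0.734 in edgeR's quasi-likelihood fit). HSPA1L, a testis-enriched relative that shares the promoter region of HSPA1A, had 1.68 and 1.96 CPM in OE, against 1.17 and 0.962 CPM in NC. HSPA1B and HSPA1L lay above both NC libraries in both OE libraries, though HSPA1L overlapped after cyclic loess and lay at -0.52 relative to genes at its level in OE replicate 1, while HSPA1A in OE replicate 2 lay between the NC libraries.

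**Figure D2:**
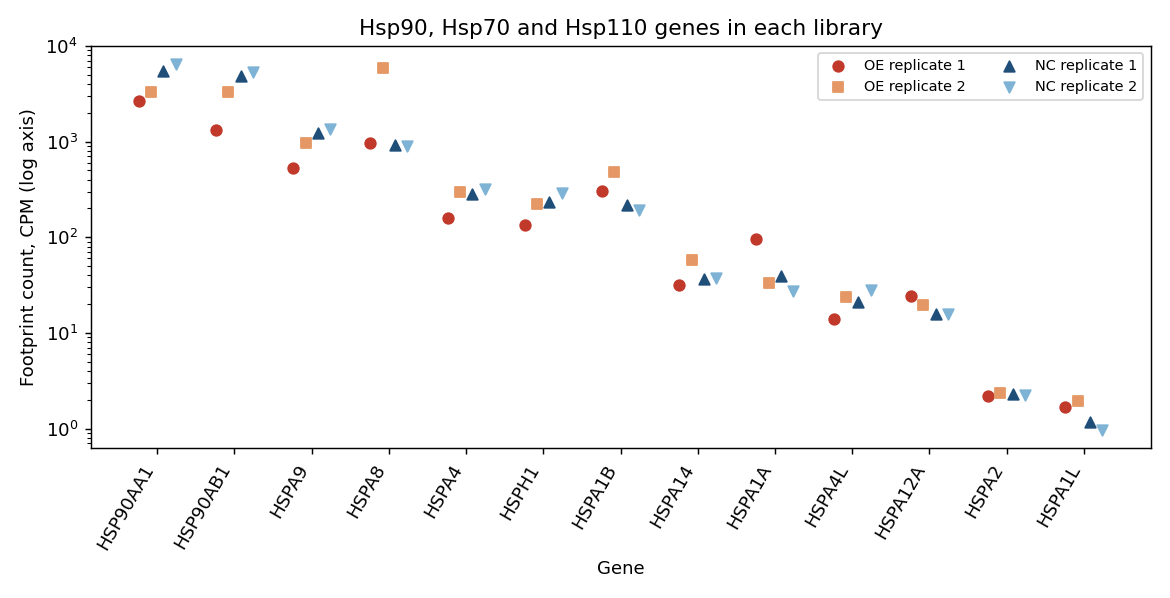
Footprint counts in CPM (log axis, not corrected for gene length) of the 13 tested Hsp90, Hsp70 and Hsp110 genes in each of the 4 libraries, OE to the left of NC, with genes ordered by NC mean. HSP90AA1, HSP90AB1, HSPA9 and HSPH1 lie lower in both OE libraries, and HSPA8 in OE replicate 2 stands at 5844 CPM, above the other 3 libraries.

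Mitochondrial Hsp70, HSPA9, which pulls imported chains through the inner membrane, lay lower in both OE libraries, at 524 and 961 CPM in OE, against 1235 and 1347 CPM in NC. The Hsp110 exchange factor HSPH1 did so as well, with 134 and 222 CPM in OE, against 236 and 287 CPM in NC. Both overlapped between the groups after cyclic loess. HSPA4, another Hsp110, had 157 and 299 CPM in OE, against 281 and 323 CPM in NC, an overlap set by OE replicate 2. The atypical member HSPA12A was higher in both OE libraries, with 24.5 and 19.4 CPM in OE, against 15.9 and 15.8 CPM in NC. HSPA14, which works with the J protein DNAJC2 on ribosomes, HSPA4L and HSPA2 overlapped, with log2 fold changes of 0.28, -0.35 and 0.02. HSPA2 turned to -0.26 after cyclic loess. Of the 11 tested Hsp70 and Hsp110 genes, 4 lay higher and 2 lower in both OE libraries, beside 19.9% and 20.4% of all genes tested, and none of the 11 passed the test. After cyclic loess 3 lay higher and 0 lower.

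J proteins were placed on both sides of NC, 8 of 35 higher and 10 lower in both OE libraries, near the 19.9% and 20.4% of all genes tested. DNAJB1 (ENSG00000132002), the heat-inducible partner of cytosolic Hsp70, had the smallest p of all members. It had 139 and 150 CPM in OE, against 66.3 and 60.3 CPM in NC, or 145 ± 7.54 CPM against 63.3 ± 4.29 CPM (SD, n = 2 each). Both OE values were more than double either NC value and close to each other, unlike those of HSPA8. In edgeR's quasi-likelihood fit it had a log2 fold change of 1.19 (SE 0.32), an unadjusted p of 0.0127 and an adjusted p of 0.734. Among the 69 tested members it was the one that lay more than 1 from the NC mean on the log2 scale, in the same direction, in both OE libraries, with differences of 1.14 and 1.25. Fits with OE replicate 1 or OE replicate 2 left out gave 1.25 and 1.14, with adjusted p of 1.72e-07 and 7.86e-08 in edgeR's quasi-likelihood fit, which then took its spread from the NC libraries alone.

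DNAJB2, whose ubiquitin-interacting motifs link Hsp70 clients to the proteasome, had 18.7 and 8.82 CPM in OE, against 4.94 and 4.87 CPM in NC. DNAJA3, the J protein of the mitochondrial matrix, had 109 and 108 CPM in OE, against 74.0 and 68.5 CPM in NC. DNAJA4 had 32.1 and 25.8 CPM in OE, against 19.2 and 20.7 CPM in NC. DNAJC4 had 11.2 and 5.83 CPM in OE, against 4.63 and 3.87 CPM in NC. DNAJB2, DNAJA3, DNAJA4 and DNAJC4 lay higher in both OE libraries, as did 19.9% of all genes tested, and the OE values of DNAJA3 were nearly equal. The log2 fold changes of these J proteins were 1.48 (SE 0.49), 0.61 (SE 0.30), 0.53 (SE 0.29) and 1.00 (SE 0.50), each with 0.734 as adjusted p in edgeR's quasi-likelihood fit. Relative to genes at the same level, OE replicates 1 and 2 lay at 1.17 and 0.89 for DNAJB2 and at 0.96 and 0.59 for DNAJA3. For DNAJA4 these values were 0.39 and 0.30, and for DNAJC4 0.65 and 0.51.

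On the other side, DNAJC17, a nuclear J protein tied to splicing, had 22.5 and 17.8 CPM in OE, against 39.4 and 40.1 CPM in NC, a log2 fold change of -0.98 (SE 0.30). DNAJB14, which sits in the ER membrane with its J domain facing the cytosol, had 54.6 and 50.5 CPM in OE, against 81.4 and 87.6 CPM in NC. DNAJC18 had 29.7 and 18.9 CPM in OE, against 42.1 and 41.3 CPM in NC. DNAJC1, also of the ER membrane, had 99.3 and 91.7 CPM in OE, against 134 and 133 CPM in NC. The OE values of DNAJC17, DNAJB14 and DNAJC1 lay close together. Relative to genes at the same level, OE replicates 1 and 2 lay at -0.69 and -1.16 for DNAJC17 and at -0.36 and -1.14 for DNAJC18. For DNAJB14 these values were 0.02 and -0.68, and for DNAJC1 0.22 and -0.48. In OE replicate 1, DNAJB14 and DNAJC1 thus did not lie below the median of genes at their level. With library totals as the only scaling, DNAJB14, DNAJC18 and DNAJC1 overlapped between the groups, while DNAJC17 did not, and DNAJC1 also overlapped after cyclic loess. With that scaling the median log2 fold change of all genes tested was 0.40, against 0.09 with the main scaling, and it left 2 of 35 J proteins lower in both OE libraries, beside 11.7% of all genes tested.

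Other J proteins, among them DNAJA1, DNAJA2, DNAJC7 and DNAJC8, split by library rather than by group. DNAJA1, a main farnesylated partner of cytosolic Hsp70, had 140 and 499 CPM in OE, against 263 and 264 CPM in NC. DNAJA2 had 136 and 302 CPM in OE, against 251 and 252 CPM in NC. DNAJC7, which binds both Hsp70 and Hsp90, had 73.3 and 212 CPM in OE, against 152 and 151 CPM in NC. All 3 were below both NC libraries in OE replicate 1 and above both in OE replicate 2, as were DNAJC8, a splicing-associated protein, and DNAJC11, of the mitochondrial cristae junctions, which lay higher in both OE libraries after cyclic loess. Others had the opposite order: DNAJC13, an endosomal J protein, had 78.0 and 30.3 CPM in OE, against 34.3 and 40.9 CPM in NC, and DNAJC21, of 60S ribosome maturation, had 106 and 38.5 CPM in OE, against 65.4 and 67.9 CPM in NC. DNAJC27 had 1.90 and 0.0904 CPM in OE, against 1.03 and 0.821 CPM in NC, and its value in OE replicate 2 was under 3 counts. DNAJC13, DNAJC21 and DNAJC27 were chosen after their values were seen.

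**Figure D3:**
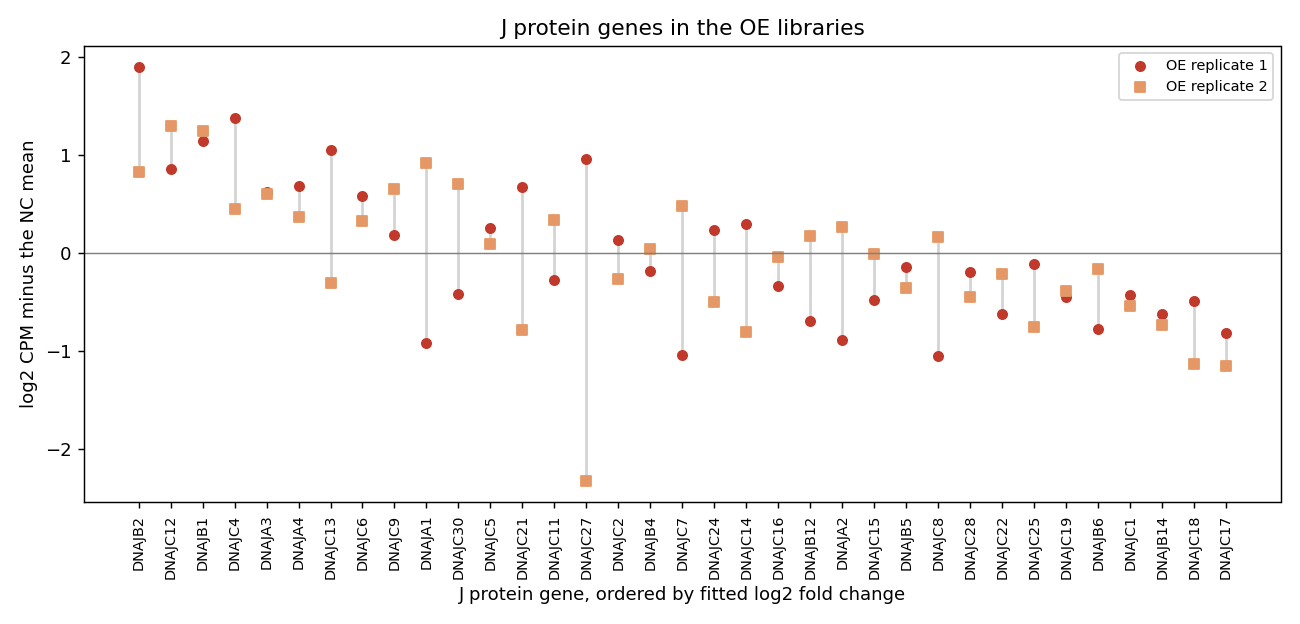
Log2 CPM minus the NC mean (vertical axis) of the 35 tested J proteins in OE replicate 1 (circles) and OE replicate 2 (squares), ordered by fitted log2 fold change; grey lines join the 2 libraries. DNAJB1 has its 2 points close together at 1.14 and 1.25, while DNAJA1 and DNAJC13 have points on both sides of 0.

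TRiC, a double ring of 8 different subunits, lay on one side of NC in each OE library under the main scaling, and on opposite sides in the 2. All 8 subunits were below both NC libraries in OE replicate 1, where 45.5% of all genes tested were, and above both in OE replicate 2, where 42.8% were. These shares are over genes of all levels, whereas all 8 subunits had a mean of at least 100 CPM. Of the 1938 genes tested at that level, 273 lay above the NC mean in OE replicate 1 and 962 in OE replicate 2. Their median differences were -0.92 and -0.01. CCT7 had 263 and 1242 CPM in OE, against 1035 and 1030 CPM in NC. CCT5 had 331 and 1246 CPM in OE, against 990 and 1052 CPM in NC. CCT3 had 328 and 1176 CPM in OE, against 1026 and 1019 CPM in NC. In each of these the NC libraries were close and lay between the OE libraries. CCT8 had 169 and 686 CPM, CCT4 146 and 568 CPM and CCT2 161 and 599 CPM in OE, against 583 and 604 CPM, 456 and 481 CPM, and 427 and 467 CPM in NC. CCT6A had 186 and 869 CPM in OE, against 495 and 500 CPM in NC. TCP1, the alpha subunit, had 134 and 366 CPM in OE, against 223 and 230 CPM in NC. Subunit log2 fold changes lay between -0.47 and 0.14, with standard errors of 0.58 to 0.83, and all adjusted p were 0.868 or more in edgeR's quasi-likelihood fit. Over the 8 subunits the median differences from the NC mean were -1.63 (OE replicate 1) and 0.28 (OE replicate 2), and relative to genes at the same level -0.55 and 0.36. TCP1 was an exception, at 0.32 and 0.77 relative to genes at its level, and after cyclic loess it lay higher in both OE libraries. CCT6B, a testis-enriched form of CCT6A, was low, with 2.86 and 2.35 CPM in OE, against 2.94 and 3.64 CPM in NC.

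Within TRiC the subunits did not keep the same shares. TCP1 held 7.77% of TRiC counts in OE replicate 1 (95% Wilson interval 7.39% to 8.17%) and 5.42% in OE replicate 2 (5.31% to 5.54%), against 4.26% (4.14% to 4.39%) and 4.28% (4.15% to 4.41%) in NC. CCT6A held 10.8% (10.4% to 11.3%) and 12.9% (12.7% to 13.03%) in OE, against 9.46% (9.28% to 9.64%) and 9.29% (9.11% to 9.48%) in NC. CCT7 held 15.3% (14.8% to 15.8%) and 18.4% (18.2% to 18.6%) in OE, against 19.8% (19.5% to 20.01%) and 19.1% (18.9% to 19.4%) in NC, and CCT8 9.81% (9.38% to 10.3%) and 10.2% (10.01% to 10.3%), against 11.1% (10.9% to 11.3%) and 11.2% (11.02% to 11.4%). In both OE libraries the shares of TCP1 and CCT6A were therefore higher, and those of CCT7 and CCT8 lower. CCT2 was also higher in both, with 9.39% (8.97% to 9.82%) and 8.87% (8.73% to 9.02%) in OE, against 8.16% (7.99% to 8.33%) and 8.67% (8.48% to 8.85%) in NC. CCT4 was lower in both, with 8.52% (8.13% to 8.94%) and 8.41% (8.27% to 8.56%) in OE, against 8.72% (8.54% to 8.89%) and 8.94% (8.76% to 9.13%) in NC. For CCT2 and CCT4, unlike TCP1, CCT6A, CCT7 and CCT8, intervals of the groups overlapped. The shares of CCT3 and CCT5 overlapped between the groups. These shares do not depend on library scaling and were not tested, as each group holds 2 libraries. A difference that goes with expression level, as in OE replicate 1, can still enter them. Among the subunits TCP1 had the lowest and CCT7 the highest NC level. The part of level in the shares was not tested.

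**Figure D4:**
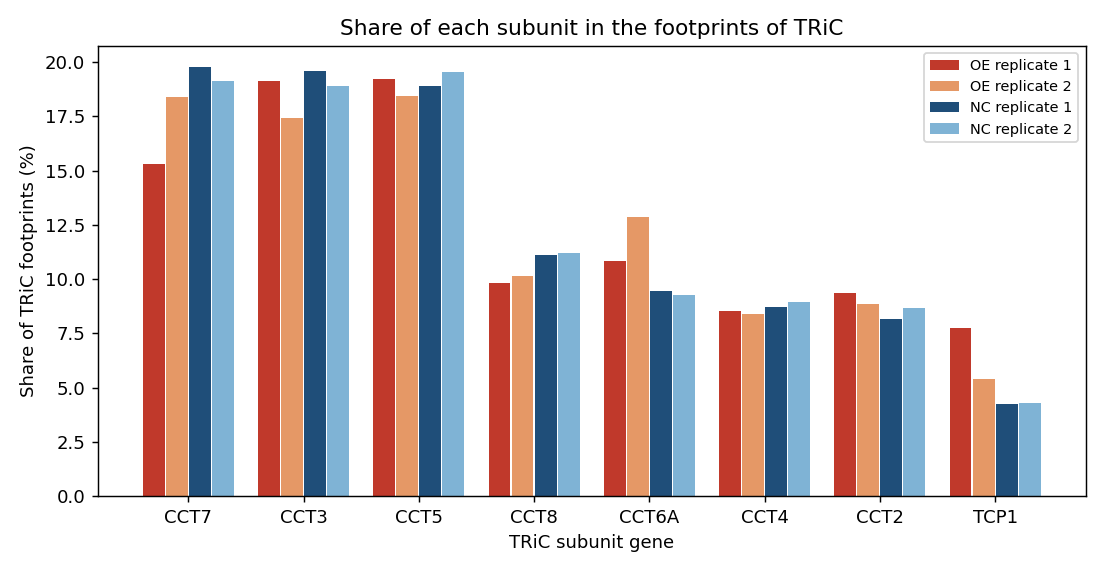
Share of each subunit gene in the TRiC footprints of a library, in percent (bars from 0), for the 4 libraries, OE to the left of NC. TCP1, CCT6A and CCT2 take a higher share in each OE library than in either NC library, and CCT7, CCT8 and CCT4 a lower one. For CCT2 and CCT4 the Wilson intervals of the groups overlap.

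Prefoldin, the hexameric partner of TRiC, did not show the same order of libraries throughout. PFDN6 had 47.7 and 98.9 CPM in OE, against 128 and 109 CPM in NC. PFDN2 had 89.7 and 146 CPM in OE, against 158 and 176 CPM in NC. PFDN4 had 44.8 and 40.1 CPM in OE, against 54.4 and 49.6 CPM in NC, and overlapped when only library totals were used for scaling. These 3 of 5 subunits were lower in both OE libraries, beside 20.4% of all genes tested, while PFDN5 (198 and 394 CPM in OE, against 386 and 311 CPM in NC) and PFDN1 (31.2 and 64.4 CPM in OE, against 55.3 and 48.1 CPM in NC) were above both NC libraries in OE replicate 2. The 20.4% is over genes of all levels. Among genes with a mean of at least 100 CPM, as PFDN2 had, 37.5% were lower in both OE libraries. Relative to genes at the same level, OE replicates 1 and 2 lay at 0.18 and -0.12 for PFDN2. These values were 0.12 and -0.38 for PFDN4, and -0.66 and -0.19 for PFDN6. After cyclic loess PFDN5 lay higher in both OE libraries. VBP1, the sixth subunit, whose symbol kept it outside the members, had 39.5 and 98.6 CPM in OE, against 59.2 and 50.8 CPM in NC. The log2 fold changes of the 5 members lay between -0.69 and -0.11, and none of the 5 passed the test.

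The mitochondrial chaperonin resembled TRiC in its larger subunit. HSPD1 (ENSG00000144381), the folding chamber, had 420 and 1675 CPM in OE, against 1465 and 1570 CPM in NC. HSPE1 (ENSG00000115541), its lid, had 386 and 834 CPM in OE, against 926 and 875 CPM in NC. HSPD1 was below NC in OE replicate 1 and above it in OE replicate 2, whereas HSPE1 was below NC in both, by 1.22 and 0.11 on the log2 scale, and overlapped after cyclic loess. HSPD1 held 52.1% of the joint counts in OE replicate 1 (51.0% to 53.1%) and 66.8% in OE replicate 2 (66.4% to 67.2%), against 61.3% (60.8% to 61.7%) and 64.2% (63.7% to 64.7%) in NC. The log2 fold changes were -0.54 (SE 0.81) and -0.56 (SE 0.59), with adjusted p of 0.861 and 0.803 in edgeR's quasi-likelihood fit.

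Among the HSPB symbols, HSPB1 (Hsp27) and HSPB7 were the small heat shock proteins that passed the filter. HSPB1 had 313 and 519 CPM in OE, against 649 and 565 CPM in NC, and overlapped between the groups after cyclic loess. HSPB7 had 0.286 and 1.54 CPM in OE, against 1.44 and 1.06 CPM in NC, where 3 counts in OE replicate 1 correspond to 0.286 CPM. HSPB11, of intraflagellar transport, had 169 and 269 CPM in OE, against 154 and 166 CPM in NC, and HSPBAP1 had 11.9 and 10.2 CPM in OE, against 7.31 and 8.68 CPM in NC. Both lay higher in both OE libraries. Relative to genes at the same level, OE replicates 1 and 2 lay at 0.73 and 0.81 for HSPB11, and at 0.001 and 0.29 for HSPBAP1. HSPBP1 had 21.0 and 98.3 CPM in OE, against 79.8 and 64.4 CPM in NC. HSPB2, HSPB3, HSPB6, HSPB8 and HSPB9 did not pass the filter.

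Members with a heat shock element did not share one direction. Of the 6 tested members with the 3-unit form, HSPA8 lay higher in both OE libraries, HSP90AA1, HSP90AB1 and DNAJB6 lay lower, and DNAJA1 and HSPD1 overlapped. DNAJB6, a suppressor of polyglutamine aggregation, had 59.5 and 91.5 CPM in OE, against 101 and 103 CPM in NC. Of the 22 tested members with a core element, 6 lay higher and 7 lower, and of 40 tested members with a promoter but no core, 7 lay higher and 10 lower, beside 19.9% and 20.4% of all genes tested, so neither set is read as a result. The 6 were HSPA8, HSPA1B, HSPA1L, DNAJB1, DNAJA4 and DNAJC6. The 7 were HSP90AA1, HSP90AB1, HSPA9, HSPB1, DNAJB6, CCT6B and PFDN6.

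HSF1 itself lay higher in both OE libraries, with 63.9 and 50.5 CPM in OE, against 33.6 and 32.1 CPM in NC, a log2 fold change of 0.80 (SE 0.31, adjusted p = 0.734 in edgeR's quasi-likelihood fit). HSF2, its relative, had 24.6 and 43.3 CPM in OE, against 41.8 and 62.0 CPM in NC. Both stand in a list of 40 co-chaperones and regulators outside the members. Of the 40, 4 lay higher and 10 lower in both OE libraries, beside 19.9% and 20.4% of all genes tested, and 0 passed edgeR's quasi-likelihood test. An unadjusted p below 0.05 in that test was found for 1 of the 40, HSF1, beside 5.5% of all genes tested. The disaggregase CLPB of mitochondria had 19.99 and 44.2 CPM in OE, against 59.1 and 67.3 CPM in NC, and CLPX, which unfolds clients of the mitochondrial protease CLPP, had 38.7 and 83.6 CPM in OE, against 89.1 and 103 CPM in NC. FKBP5, an Hsp90 co-chaperone of steroid receptors, had 8.28 and 9.99 CPM in OE, against 12.2 and 14.8 CPM in NC. The 3 genes CLPB, CLPX and FKBP5 lay lower in both OE libraries, while the nucleotide exchange factors BAG1 and GRPEL2 lay higher, with log2 fold changes of 0.53 and 0.40. BAG1 had 59.5 and 32.22 CPM in OE, against 31.25 and 32.19 CPM in NC, so its OE replicate 2 lay only just above NC replicate 2. GRPEL2 had 75.9 and 64.9 CPM in OE, against 54.5 and 52.1 CPM in NC. CHORDC1, which binds Hsp90, had 38.8 and 83.1 CPM in OE, against 37.5 and 43.2 CPM in NC. The median log2 fold change of the 40 genes was -0.12, beside -0.20 for the 69 members and 0.09 for all genes tested. These sets differ in level, with median NC values of 6.19, 5.99 and 4.45 log2 CPM. Genes tested with a mean of at least 100 CPM had a median log2 fold change of -0.31. The part of level in these medians was not tested.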

How the data were processed

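For each library the authors deposited a table of estimated counts by Ensembl gene, per the file headers; between 13.8% and 14.7% of values held a fraction, and counts were rounded to whole numbers for count tests. RSEM, HISAT2, StringTie, fastp, Bowtie2 and hg18 are named in the submitters' processing notes; the sources used here do not give versions, settings, annotation, strand or ribosomal RNA removal. Overlapping and near-identical genes may share reads.

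Groups and replicate numbers came from sample titles. In R 4.3.3, genes were kept by filterByExpr (minimum count 10, total 15, proportion 0.7), which left 12560, and scaled by TMM (factors 1.36 and 0.907 in OE, 0.889 and 0.912 in NC). OE was compared with NC by edgeR 4.0.16's quasi-likelihood test (group as the only term), adjusted over all genes by Benjamini-Hochberg, at a threshold of 0.05. A standard error is the size of the log2 fold change over the root of its F statistic. CPM were computed from deposited counts; log2 CPM used a prior count of 2. The fit was tested on simulated data with known changes. These had the same dispersion for all genes and libraries and no trend with expression level. The simulation therefore does not show how the fit performs with OE libraries as unlike as these. Replicates differed by a chi-square per degree of freedom of 346 (OE) and 13.2 (NC), so no library was a repeat. Nothing in the labels beyond the stated independent experiments ties same-numbered libraries together, and the deviations of same-numbered libraries correlated at -0.10 over genes, so the numbers were not treated as pairs.

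Alternatives were DESeq2 1.42.0, RLE and library-total scaling, cyclic loess with limma 3.58.1, other filters, the replicate block, leaving out each library, and summed rows; summing HSPA1A with HSPA1B and placing each OE library alone were added after seeing the data. Promoters are RefSeq's (GRCh38.p14), matched by symbol. Members, lists and motifs were chosen with earlier results of these data known. Named were METTL14, all tested TRiC, prefoldin and mitochondrial chaperonin genes, in other classes those highest in NC, with the smallest p or beyond 1 on the log2 scale in both OE libraries, and 8 other pathway genes of smallest p; others were named after their values were seen.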

Additional observations from a re-analysis of the deposited data

How the results depend on the processing

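Genes called over all genes numbered 0 by edgeR's quasi-likelihood test (691 at an unadjusted p below 0.05), 25 by DESeq2's Wald test and 24 with the replicate block, and between 3 and 7684 when 1 library was left out. Members called numbered 0 in each fit over all 4 libraries and between 0 and 43 when 1 library was left out: 26 without OE replicate 1, 43 without OE replicate 2 and 0 without either NC library. A fit with 1 OE library assumes that it varies as the NC libraries do. METTL14 had 2.54 by DESeq2 (adjusted p = 0.0495), 2.13 with the replicate block, and between 0.99 and 3.28 when 1 library was left out.

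The class median of Hsp70, Hsp110 and Hsp90 genes was 0.02, and had no stable sign: it was 0.33 with library totals, -0.33 with at least 50 counts in 2 libraries, -0.35 over members of at least 10 CPM, -0.17 with HSPA1A and HSPA1B summed, and between -0.23 and 0.028 when 1 library was left out. The J protein median of -0.09 was 0.27 with library totals. When 1 library was left out, the TRiC and prefoldin median lay between -1.36 and 0.24, that of the mitochondrial chaperonin between -1.54 and 0.02, and that of HSPB symbols between -0.95 and 0.35. Of the 69 members, 8 changed sign with a call: without OE replicate 1 and without OE replicate 2, their values were 0.42 and -1.47 for CCT2, 0.80 and -1.42 for CCT6A, 0.92 and -0.92 for DNAJA1, -0.79 and 0.67 for DNAJC21, -3.27 and 1.03 for DNAJC27, 0.48 and -1.05 for DNAJC7, 0.45 and -1.78 for HSPBP1, and 0.69 and -0.76 for TCP1. Signs also changed, with no call, for 13 members with library totals, 8 after cyclic loess and 4 with the replicate block. The cause was not tested. OE replicate 1 had the fewest counts, with 3 counts equal to 0.286 CPM, against 0.136 CPM in OE replicate 2.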
